A study of Mus musculus with 5 samples.

Results

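Mature neutrophils are described here in mouse femur marrow after bone marrow ablation and in old age. They were taken by a rule from the unique molecular identifier (UMI) counts of each cell. A member had at least 500 genes and 1000 UMIs, under 25% mitochondrial UMIs and under 100 Cxcl12 UMIs per 10000. It also had at least 3 of Retnlg, Cxcr2, Stfa2l1, Clec4d, Acod1 and Il36g, and fewer than 20 UMIs per 10000 of the granule genes Camp, Ltf and Ngp together. The rule found 686 members among 47829 filtered cells, which is 1.43%. There were 379 in exhausted, 95 in naive, 1 in aged-injury, 55 in aged and 156 in control.

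The study sorted tdTomato-positive cells from femurs of Lepr-cre; R26R-tdTomato mice and read their RNA on a BD Rhapsody microwell instrument. All groups carried the same alleles, in which Cre from the leptin receptor gene switches on the red reporter, chiefly in stromal cells. Each group was 1 library, and neither the number of animals nor a batch is given in the labels. The exhausted mice were 15 weeks old and had marrow ablation surgery at 9 and 13 weeks, and the naive mice were 15 weeks old with surgery at 13 weeks alone. The aged-injury mice were 18 months old, 1 week after ablation. The aged mice were 18 months old with no surgery, and the control mice were 15 weeks old with no surgery.

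Neutrophils are short-lived granulocytes that are made in the marrow. Their precursors fill with azurophil, specific and then gelatinase granules, and the messages for granule proteins are shut off as the cells mature. Mature cells are held in the marrow by stromal Cxcl12 acting on the receptor Cxcr4, and leave it when the interleukin-8-type receptor Cxcr2 prevails.

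The deposited libraries held 7480 to 20867 cells each, of which 70.1% to 93.4% passed the filters. Members from different libraries shared 0 cell barcodes, and at most 5 barcodes were shared between any pair of whole libraries. The sort was for tdTomato, yet in the members kept for the gene comparisons tdTomato was at 3.52 CPM in exhausted, 8.16 in naive, 3.81 in aged and 10.3 in control, against 67.5, 73.5, 84.8 and 88.9 CPM in the Cxcl12-high cells of the same libraries. Here CPM is the usual scaling of a gene's UMI count, summed over a group of cells, to a fixed total. No doublet caller was run. Each group being a single library, differences between groups have no test, and every interval below covers counting error only.

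The label was checked with neutrophil genes that the rule did not use. S100a8 and S100a9 encode the calprotectin subunits that fill neutrophil cytosol, and Csf3r encodes the receptor for granulocyte colony-stimulating factor. The median over the other members ran from 773 to 1103 UMIs of these genes per 10000. A second set of 45 members had fewer than 20 together: 29 in exhausted, 2 in naive, 0 in aged-injury, 1 in aged and 13 in control. In all, 65 members had only 3 of the 6 rule genes. The S100-poor cells were among them in 25 of 29 cases in exhausted, 2 of 2 in naive, 1 of 1 in aged and 12 of 13 in control. They were deep cells, with a median of 23919 UMIs in exhausted, 72260 in naive and 23902 in control, against 4016, 4847 and 5378 in the S100-rich members. Although few, they held 31.5% of the members' UMIs in exhausted, 22.8% in naive, 5.86% in aged and 30.01% in control. Their median Retnlg was 0.396 per 10000 in exhausted and 0.416 in control, beside a mean of 0.674 and 0.952 in the Cxcl12-high cells.

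The S100-poor members carried markers of other blood cells. Dendritic cell markers summed to 17056 CPM in those of exhausted, against 845 CPM in the S100-rich members of that library. Macrophage markers summed to 9059 CPM against 465 CPM there, and neutrophil precursor markers to 15327 CPM against 936 CPM in control. Basophil or mast cell markers stood at 3579 CPM in the S100-poor and 1.14 CPM in the S100-rich members of control. These sums are over few cells and differed by library. In naive, dendritic cell markers were at 104 CPM in the S100-poor and 93.8 CPM in the S100-rich members, and macrophage markers at 4200 against 277 CPM. Taken as a group, these 45 cells go against the label, but the sums do not give the type of each cell. The name mature neutrophil is kept for the 641 S100-rich members, 350 in exhausted, 93 in naive, 1 in aged-injury, 54 in aged and 143 in control. The cut at 20 per 10000 was chosen after the values were seen. It fell in a gap in 3 libraries: in naive the highest S100-poor value was 0.326 and the lowest S100-rich value 67.3. In exhausted, by contrast, these values were 19.2 and 24.9, and 7 cells lay from 20 to 50.

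**Figure D1:**
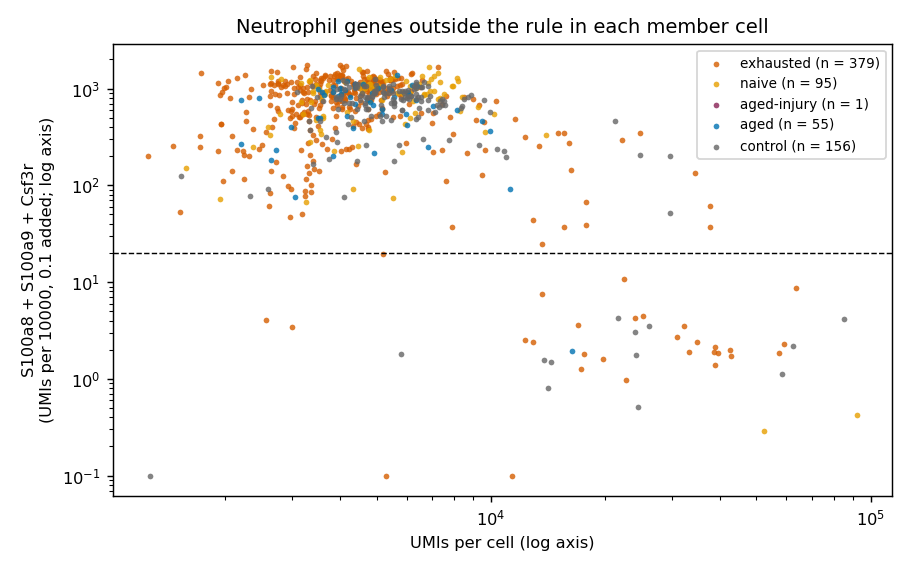
Each point is 1 member cell. The horizontal axis gives its UMIs, the vertical axis S100a8 plus S100a9 plus Csf3r in UMIs per 10000 with 0.1 added, both on log scales, and the dashed line marks 20 per 10000. The cells under the line, 45 in all, lie mostly to the right of the main cloud, and in exhausted a few cells lie close to the line on both sides.

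Within the S100-rich members the sums of several other blood cell markers rested mostly on a small part of the cells. Erythroid markers, which include globin messages, summed to 12403 CPM in exhausted, 10116 in naive, 464 in aged and 11303 in control, but their median per cell was 5.99, 2.77, 4.65 and 7.17 UMIs per 10000. The 10% of cells with most of these markers held 91.7% of their summed share in exhausted, 95.9% in naive, 24.5% in aged and 91.0% in control. B-lineage markers were at 1797 CPM in aged and at 300 CPM in control, and the highest 10% of cells held 88.3% in aged. Dendritic cell markers were at 845 CPM in exhausted, 93.8 in naive, 187 in aged and 46.9 in control, with a median of 0 per cell and Siglech, Xcr1 and Cd209a at 0 in all of these. Eosinophil markers were at 715, 30.6, 7.61 and 24.0 CPM in the same order, and the highest 10% of cells held 100% of them in exhausted. Macrophage markers were at 465, 277, 198 and 213 CPM. Stromal markers without Cxcl12 summed to 2.24% to 2.55% of their level in Cxcl12-high cells across exhausted, naive, aged and control. The part of these other-cell messages in the differences below was not tested.

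Members by the rule, S100-poor cells included, made up 6.04% of filtered cells in exhausted (95% exact Clopper-Pearson interval 5.46 to 6.66), against 1.69% in control (1.43 to 1.97). They were 1.81% in naive (1.47 to 2.21), whose interval overlaps that of control, so no difference was detectable at this depth. In aged-injury 1 member was found among 19497 cells, or 0.00513% (0.00013 to 0.0286), against 0.728% (0.549 to 0.946) in aged. Aged was also below control. With S100-rich members alone the shares were 5.58% in exhausted, 1.77% in naive, 0.714% in aged and 1.55% in control. Granule-rich neutrophils, the less mature cells described below, were likewise 7.77% of filtered cells in exhausted and 4.99% in control. A sort for tdTomato can set all of these shares, so how many neutrophils the marrow held cannot be read from them.

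Other denominators gave a different order for naive. Among cells with low Cxcl12, which leaves out most reticular stroma, members by the rule were 9.31% in exhausted (8.44 to 10.2), 3.25% in naive (2.64 to 3.96) and 5.05% in control (4.30 to 5.88). The share was 0.0136% in aged-injury (0.00034 to 0.0758) and 2.99% in aged (2.26 to 3.87). A ratio within the neutrophil lineage depends less on the stroma. Granule-rich neutrophils, with at least 200 UMIs of Camp, Ltf and Ngp per 10000, numbered 488 in exhausted, 165 in naive, 22 in aged-injury, 116 in aged and 462 in control. Of members by the rule and granule-rich cells together, the members were 43.7% in exhausted (40.4 to 47.1) and 36.5% in naive (30.7 to 42.7), against 25.2% in control (21.9 to 28.9). They were 4.35% in aged-injury (0.11 to 21.9), against 32.2% in aged (25.2 to 39.7). With S100-rich members alone the values were 41.8% in exhausted, 36.0% in naive, 31.8% in aged and 23.6% in control. Granule-rich cells were 3.15% of filtered cells in naive against 4.99% in control, while members were close in share, so fewer granule-rich cells went with the naive ratio. Both young ablated libraries lay above control, 2 weeks after the last surgery, and aged-injury lay below aged, 1 week after surgery.

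**Figure D2:**
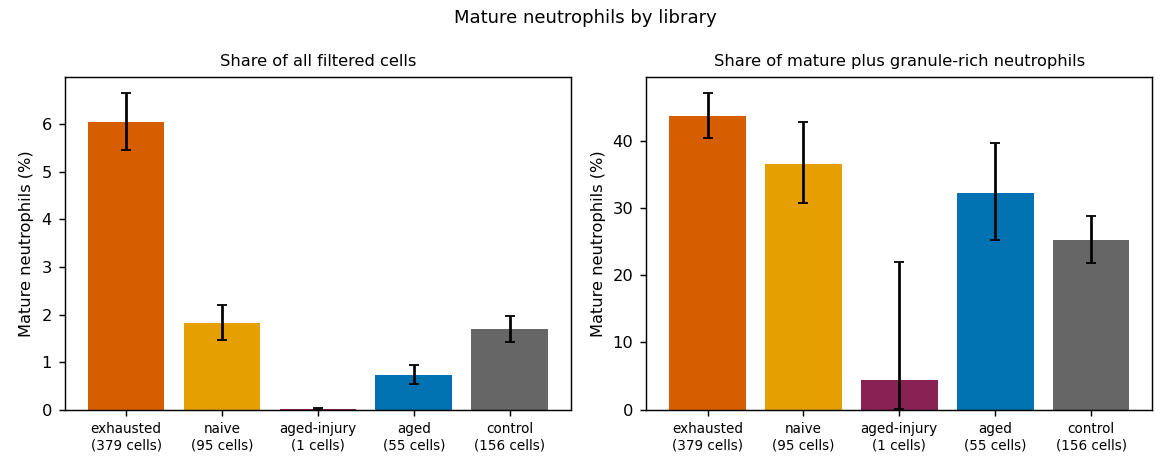
Bars give members by the rule, S100-poor cells included, as a percentage of all filtered cells (left) and of members plus granule-rich neutrophils (right) in each library. Exact Clopper-Pearson 95% intervals are drawn, and the number of members stands under each bar. The axes name these members mature neutrophils. Exhausted is highest in both panels, at 6.04% and 43.7%, and aged-injury is lowest, at 0.00513% and 4.35%.

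The rule cut a continuous range. Members just inside it in exhausted had 19.9 and 19.2 granule-gene UMIs per 10000 and cells just outside had 20.2 and 21.1. The median was 0.664 inside and 357 outside. A further 186 cells in exhausted, 43 in naive, 2 in aged-injury, 23 in aged and 105 in control lay between the mature and the granule-rich cells. Of cells that met the other conditions but had only 2 of the 6 markers, there were 171 in exhausted, 19 in naive, 2 in aged-injury, 9 in aged and 59 in control.

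The genes of the rule describe the members and are no finding. In the S100-rich members Retnlg, which encodes a small secreted resistin-like protein, was at 17897 CPM in exhausted, 27396 in naive, 26804 in aged and 27049 in control. Cxcr2 was at 3246, 4102, 3399 and 3098 CPM in the same order. Clec4d, a C-type lectin receptor, stood at 1550, 1618, 1530 and 1335 CPM. Stfa2l1, a stefin-type protease inhibitor, had 1362, 1340, 1073 and 1232 CPM. Exhausted stood lowest in Retnlg, and all of these genes lay within 2-fold across the libraries. Acod1, the enzyme that makes itaconate, lay between 1426 and 1876 CPM and Il36g, an interleukin-1 family cytokine, between 902 and 1122 CPM.

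Set against granule-rich neutrophils of the same library, mature neutrophils carried more message for inflammatory mediators and NF-kappa-B genes, and less for granule proteins. Since the rule used granule genes, this is a description. The values are of all members by the rule, so they include the S100-poor cells, and S100-rich counts follow where they differ. Of 2546 genes measured, 244 (9.58%) were at least 2-fold higher in exhausted, naive, aged and control alike and 158 (6.21%) were at least 2-fold lower in all of them. The median log2 ratio over all genes was 0.07. These totals include the 9 genes of the rule, whose direction the rule favoured. Mature cells also had fewer UMIs, with a median of 4016 to 5378 in the S100-rich members against 10178 to 12715 in the granule-rich cells.

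The mediators were among the genes with the widest ratios. Il1b, the cytokine interleukin-1 beta, was at 3928 CPM in mature against 304 CPM in granule-rich cells of exhausted, 3573 against 309 in naive, 5787 against 223 in aged and 4595 against 150 in control. The neutrophil chemokine Cxcl2 was 6.06-fold higher in naive and up to 16.4-fold higher in control. Ptgs2, the inducible cyclooxygenase, was 12.2-fold higher in naive and up to 28.4-fold higher in aged. Of 11 measured mediators outside the rule, 7 were higher in each of these libraries and 0 lower, and the others were Ccl6, Il1rn, Nlrp3 and Osm. The list median was 1.37 on the log2 scale. In S100-rich members the same 7 mediators were past 2-fold, with Il1b at 5353 CPM in exhausted, 4567 in naive, 6147 in aged and 6319 in control.

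The NF-kappa-B feedback list holds inhibitors of this transcription factor, but also its subunits and other genes tied to it. Of this list 6 of 10 genes were higher, with a median of 1.31. Nfkbia, the cytoplasmic inhibitor of NF-kappa-B, was 3.39-fold to 3.86-fold higher and the ubiquitin editor Tnfaip3 3.57-fold to 4.51-fold. Immediate early and heat shock genes, taken as 1 list, were higher for 7 of 20, among them Dusp1, a phosphatase of stress kinases, 5.44-fold to 7.10-fold. Of chemoattractant and adhesion receptors 7 of 15 were higher. Csf3r was 4.88-fold to 6.47-fold higher and the decoy receptor Il1r2 2.76-fold to 3.13-fold. Ltb4r1, a leukotriene B4 receptor, went the other way, at 22.5 CPM in mature and 139 CPM in granule-rich cells of exhausted. Cxcr4 was 1.46-fold to 2.94-fold higher and so did not pass in each library.

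Pattern and Fc receptors were higher for 3 of 17, among them Clec7a, a receptor for fungal glucan, 8.01-fold to 12.4-fold. Of survival genes 3 of 8 were higher, with Mcl1, on which neutrophil survival depends, at 2.52-fold to 2.96-fold. The transcription factor genes Cebpb, Irf1, Litaf and Rara were higher and Cebpe and Klf5 lower, out of 12. Cebpe, which drives specific granule genes in precursors, was at 4.42 CPM in mature against 126 CPM in granule-rich cells of exhausted. Of 5 glucocorticoid response genes 3 were higher, and of 14 glycolysis and hypoxia genes Hif1a and Slc2a1 were higher and Ero1a lower. Single members passed in 3 further lists: Oasl2 of 5 interferon genes, H2-D1 of 5 class I genes and Cstdc4 of 6 stefin and S100 genes were higher.

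Specific granule genes outside the rule were lower for 8 of 11, with a list median of -2.50. Lcn2, the iron-siderophore binding lipocalin, was at 2166 CPM in mature against 17228 CPM in granule-rich cells of exhausted. The chitinase-like Chil3 was at 113 against 6278 CPM and the surface protein Cd177 at 216 against 2522 CPM there. Cybb, the catalytic subunit of the NADPH oxidase, was at 957 against 4048 CPM in exhausted. It was the 1 oxidase gene of 6 at least 2-fold lower in each library, and the median of that list was -0.84. Gelatinase granule genes kept near their level: Slc11a1 alone of 9 was past 2-fold, and Mmp9, a gelatinase, was at 0.81 to 1.13 times the granule-rich level. Cell division genes were lower for 5 of 12 and azurophil genes for 0 of 3. In S100-rich members these 3, Mpo, Elane and Prtn3, were each past 2-fold lower in naive, aged and control, but not in exhausted. There Mpo was at 271 CPM against 55.8 CPM in granule-rich cells, with its counts mostly in 1 cell, as given below. With S100-rich members alone, 314 genes were higher and 234 lower of 2491, with genes of the rule again not left out. The specific granule count was again 8 of 11, and cell division genes were lower for 11 of 12. Receptors were then higher for 9 of 15, pattern and Fc receptors for 7 of 17 and NF-kappa-B feedback genes for 7 of 10. Immediate early and heat shock genes were higher for 8 of 20, glucocorticoid response genes for 4 of 5 and transcription factor genes for 5 of 12. Gelatinase granule genes were higher for 2 of 9 and stefin and S100 genes for 2 of 6. Mmp9 was at 1.14 to 1.43 times the granule-rich level in these members.

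**Figure D3:**
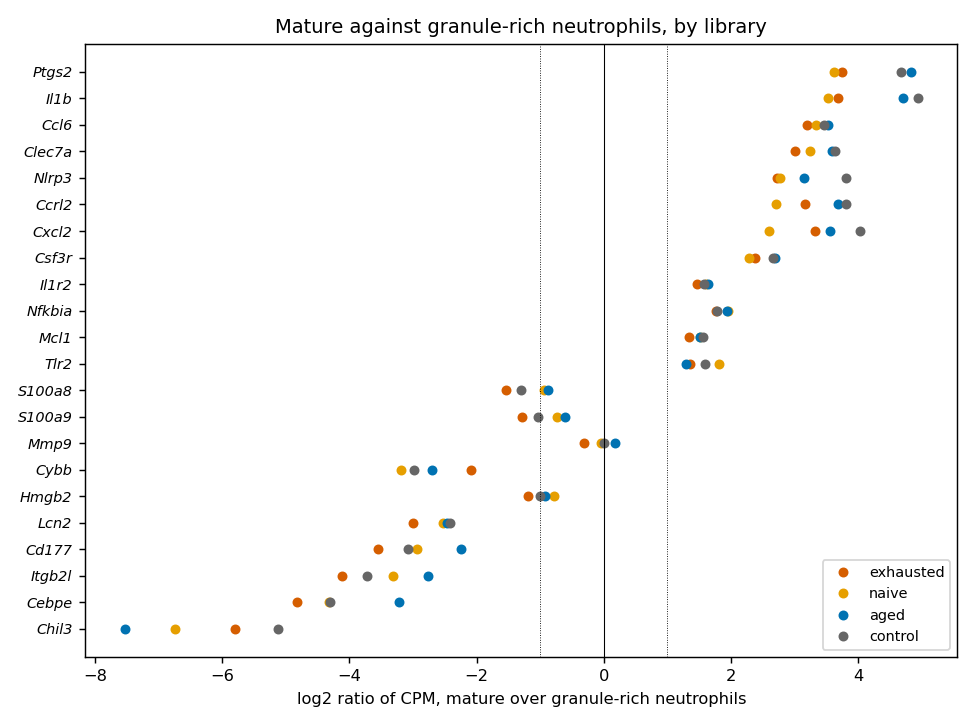
Each row is a gene and each point a library, placed at the log2 ratio of CPM in mature over granule-rich neutrophils, and dotted lines mark 2-fold either way. Mediators and receptors sit to the right in each library and granule genes to the left, while Mmp9 lies near 0, and Cebpe of aged, with 0 counts in mature cells, is placed at a floor of 3 counts.

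Retnlg varied widely among the S100-rich members themselves. The median was 144 UMIs per 10000 in exhausted, 226 in naive, 263 in aged and 276 in control. The middle of the cells, from the lower to the upper quartile, spanned 40.7 to 323 in exhausted and 132 to 420 in control. Cells under 20 per 10000 were 64 of 350 in exhausted, or 18.3% (14.4 to 22.7), against 8 of 143 in control, or 5.59% (2.45 to 10.7). In naive they were 12 of 93, or 12.9% (6.85 to 21.5), and 4 of 54 in aged, or 7.41% (2.06 to 17.9), and both intervals overlap that of control. This limit was set after the values were seen and cuts a continuous range: 38 cells in exhausted, 8 in naive, 1 in aged and 7 in control lay from 10 to 30. Retnlg-low cells had a median of 3328 UMIs in exhausted, against 4354 in those with at least 100 per 10000.

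**Figure D4:**
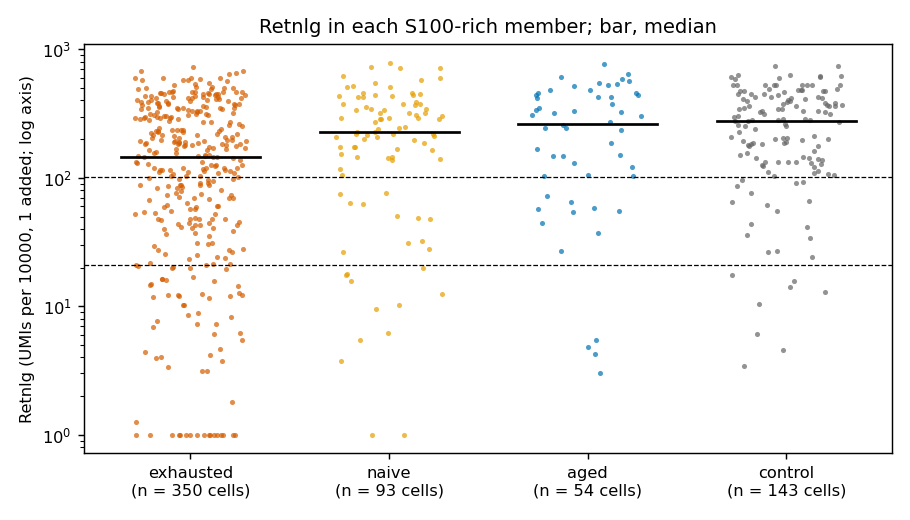
Each point is an S100-rich member, with Retnlg in UMIs per 10000 (1 added) on a log axis. Black bars are medians and dashed lines mark 20 and 100 per 10000, and the exhausted library has the lowest median, at 144.

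The 64 exhausted and 12 naive Retnlg-low cells were set beside the 206 and 70 cells with at least 100 per 10000 of the same library, by mean UMIs per 10000 over cells. This describes cells chosen by 1 of their own genes and carries no test. A gene was measured if its mean and its share of cells with a UMI passed a floor in the higher group, in both libraries. Genes could thus enter through the cells where they were high, which in naive could be few of 12. Of 1652 genes measured, 95 (5.75%) were at least 2-fold higher in the Retnlg-low cells of both libraries and 64 (3.87%) at least 2-fold lower in both. The 64 lower genes include Retnlg, which made the split, the rule gene Ngp, and S100a8 and S100a9, which set the S100-rich limit. Csf1, the macrophage growth factor, averaged 6.20 in Retnlg-low against 0.553 in Retnlg-high cells of exhausted, and 3.31 against 0.270 in naive. Cxcr4, the marrow retention receptor, averaged 15.3 against 5.24 in exhausted and 24.6 against 3.07 in naive. Both genes were thus higher in the Retnlg-low cells of the 2 libraries.

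The integrin Itga4, which binds Vcam1, averaged 5.50 against 0.987 in exhausted and 4.02 against 0.350 in naive. The stress factor Atf3, the immediate early genes Egr1 and Nr4a1, the scavenging receptor Ccrl2 and Ptgs2 were also past 2-fold higher in both. Of specific granule genes outside the rule, 8 of 9 measured were lower in the Retnlg-low cells of both libraries, and of gelatinase granule genes 1 of 9, Mmp8. Mmp8, the neutrophil collagenase, averaged 3.72 against 37.4 in exhausted and 4.002 against 55.6 in naive. Ly6g, the surface antigen used to sort mouse neutrophils, averaged 0.462 against 3.86 in exhausted and 0.634 against 6.67 in naive. Lcn2, Cd177, Wfdc21, Padi4, S100a8 and S100a9 were lower in both as well. Myeloid genes that macrophages also express, Clec4n, Ctss and Ctsb, were past 2-fold higher in both, with Clec4n at 1.31 against 0.0347 in exhausted. Of the 64 exhausted cells 6 had under 50 UMIs of S100a8, S100a9 and Csf3r per 10000. Without them, a choice made after seeing the data, Csf1 averaged 6.76 and Ctsb 2.76 in the Retnlg-low cells, against 0.553 and 1.80 in the Retnlg-high cells, so Ctsb was then within 2-fold. Cxcr2, with 34.0 against 39.8 in exhausted and 50.6 against 42.7 in naive, lay within 2-fold, as did Clec4d and Csf3r.

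Gene levels were then compared between libraries as ratios of CPM, each gene at 50 CPM and 30 counts or more in the higher library. All members had 2488091 UMIs to sum in exhausted, 634734 in naive, 279080 in aged and 1249305 in control. More genes could reach 30 counts in a library with more UMIs, so higher and lower were not equally open. A gene counted as past the fold at 2-fold or more. By the rule, 294 of 3566 genes (8.24%) were past it for naive over control, 295 of 3555 (8.3%) for exhausted over control, 402 of 3569 (11.3%) for exhausted over naive and 648 of 2879 (22.5%) for aged over control. Naive had 109 genes higher (3.06%) and 185 lower (5.19%) than control, and exhausted had 203 higher (5.71%) and 92 lower (2.59%). Exhausted over naive had 280 higher (7.85%) and 122 lower (3.42%), and aged over control 61 higher (2.12%) and 587 lower (20.4%). In 274, 240, 306 and 606 of these genes, in the same order, 1 cell held over 10% of the counts. With S100-rich members alone the counts were 176 (6.18%), 109 (3.54%), 253 (8.66%) and 198 (8.29%), and 1 cell held over 10% of the counts in 136, 70, 183 and 139 of them. The accounts below give S100-rich values unless stated, with exact conditional binomial 95% intervals of the ratio. Genes named from outside the lists had no cell with over 10% of the counts in the higher library. Naive, exhausted and aged share the control library, and exhausted and naive both enter a further comparison, so their ratios are not independent.

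In exhausted over control, Ccl3, Ccl4, Csf1 and Atf3 were among the genes past 2-fold higher, and Prok2 and Ly6g among those lower. Of S100-rich genes 78 (2.53%) were higher and 31 (1.01%) lower. Ccl3, a chemokine that draws monocytes and other leukocytes, was at 193 CPM in exhausted, 79.6 in naive, 91.3 in aged and 34.3 in control. Exhausted was highest of these, and the ratio to control was 5.61 (3.86 to 8.45). Csf1 was at 200 CPM in exhausted, 77.5 in naive, 118 in aged and 75.5 in control, a ratio to control of 2.64 (2.03 to 3.496). By the rule both were past the fold too, at 320 against 74.4 CPM for Ccl3 and 146 against 65.6 CPM for Csf1. Csf1 was at 967 CPM in Cxcl12-high cells of exhausted and 876 CPM in those of control, where the stromal markers of the S100-rich members reached 2.29% and 2.55% of the stromal level.

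Of 18 inflammatory mediators 3 were past 2-fold higher in exhausted than in control, the third being Ccl4, another leukocyte chemokine, and 1 was lower, Cxcl3. The list median was -0.11, beside 0.00 over all genes. Il1b, at 5353 CPM in exhausted against 6319 CPM in control, and Cxcl2, at 3284 against 4565 CPM, were within 2-fold. Atf3 was at 234 CPM in exhausted, 67.3 in naive, 190 in aged and 76.6 in control, and 1 cell held 10.1% of its exhausted counts. The adhesion molecule Alcam was at 248 against 112 CPM, and Pmaip1, which encodes the death-promoting protein Noxa, at 61.6 against 21.7 CPM.

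Prok2, a small chemoattractant peptide of mature granulocytes, was at 37.0 CPM in exhausted, 75.5 in naive, 41.9 in aged and 135 in control. Control was highest, and the ratio of exhausted to control was 0.27 (0.20 to 0.38). Ly6g was at 257 CPM in exhausted, 553 in naive, 331 in aged and 542 in control, a ratio to control of 0.47 (0.42 to 0.54). In granule-rich cells Ly6g was at 819 CPM in exhausted and 959 CPM in control. Dgat2, which makes triglyceride, was at 110 CPM in exhausted and 222 CPM in control, and by the rule at 80.8 and 158 CPM, within 2-fold.

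Leaving out the cells with lower Retnlg changed some of these ratios. Csf1 and Ly6g already differed with Retnlg among these same exhausted cells, so the part of Retnlg-low cells in the ratios was not tested. Among S100-rich members with Retnlg at least 100 per 10000, Csf1 was at 65.6 CPM in exhausted and 36.7 CPM in control, a ratio of 1.79 (1.12 to 2.94). Ly6g was at 389 against 660 CPM there, a ratio of 0.59 (0.51 to 0.68). Both were then within 2-fold. Ccl3, at 146 against 32.4 CPM, Atf3, at 142 against 70.5 CPM, and Prok2, at 49.96 against 164 CPM, were still past it. In these cells 30 genes were higher and 76 lower, so the balance of directions turned round from the 78 and 31 given above. With at least 50 UMIs of S100a8, S100a9 and Csf3r per 10000, which removes 7 exhausted cells, 53 genes were higher and 33 lower. Ccl3, Csf1, Atf3, Alcam and Prok2 were then still past 2-fold, while Ly6g, at 275 CPM in exhausted against 542 CPM in control, Dgat2 and Egln3 were just within it. Dendritic cell, eosinophil and macrophage markers were higher in exhausted than in control, as given above, also in these cells, at 794 against 46.9, 760 against 24.0 and 382 against 213 CPM. Their part in these ratios was not tested.

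Exhausted set against naive had 226 genes higher (7.73%) and 27 lower (0.924%), and 145 and 25 with the limit of 50 per 10000. Csf1, Ccl3 and Atf3 were again past 2-fold higher, with ratios of 2.57 (1.84 to 3.70), 2.42 (1.73 to 3.47) and 3.47 (2.43 to 5.11). Arl4c, a small GTPase of the Arf family, was at 259 CPM in exhausted, 67.3 in naive, 137 in aged and 236 in control, so naive stood apart. Zeb2, a zinc finger repressor, was likewise at 253, 97.9, 244 and 221 CPM. H2-Q7 and H2-Q4, nonclassical class I genes, were higher in exhausted than in naive out of 9 class I genes, with H2-Q7 at 58.7 against 10.2 CPM. These near-identical genes may share reads.

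Fkbp5, a chaperone that glucocorticoids induce, was at 26.4 CPM in exhausted, 104 in naive, 64.7 in aged and 54.9 in control. Exhausted was lowest and naive highest, with a ratio between them of 0.25 (0.17 to 0.39). It was the 1 gene of 8 in the glucocorticoid list past 2-fold in exhausted over naive, where the list median was -0.61 beside 0.03 over all genes. In Cxcl12-high cells Fkbp5 was at 33.0 CPM in exhausted and 55.8 CPM in naive, and in granule-rich cells at 48.0 and 74.9 CPM. Rdh12, a retinol dehydrogenase, was at 560 CPM in exhausted and 1238 CPM in naive.

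In naive over control, 38 genes (1.33%) were higher and 138 (4.85%) lower. Control had more UMIs to sum than naive, so more genes could reach 30 counts there. Swap70, a cytoskeletal and signalling adaptor, was at 87.7 CPM in naive, while exhausted had 32.3, aged 41.9 and control 22.9. The interferon-inducible Ifi27l2a was at 363 CPM in naive, while exhausted had 197, aged 72.3 and control 151. Naive was highest for both, with ratios to control of 3.83 (2.21 to 6.88) and 2.41 (1.91 to 3.04). Of 9 interferon genes 0 were past 2-fold, with a list median of 0.31 beside -0.04 over all genes. By the rule Gbp2, Gbp5 and Irgm1 of 14 were higher.

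Ccrl2, which binds the chemoattractant chemerin without signalling, was at 537 CPM in naive, while exhausted had 638, aged 750 and control 1263. Each of the other libraries lay below control, and the ratio of naive to control was 0.42 (0.37 to 0.49). By the rule it was within 2-fold, at 479 CPM in naive against 892 in control. Tgm2, a transglutaminase, was at 186 against 467 CPM and Odc1, the first enzyme of polyamine synthesis, at 8.16 against 58.3 CPM. Odc1 was at 62.2 CPM in exhausted and 83.7 CPM in aged, so naive alone was low. By the rule it was within 2-fold, at 64.6 CPM in naive and 125 CPM in control. The receptor Icam1 and the mediators Cxcl3 and Vegfa were lower in naive, and Ccl3 and Ccl4 higher, out of 16 genes in either list. For Vegfa, 1 cell held 22.4% of the control counts, and for Ccl3 and Ccl4 1 cell held 25.6% and 30.9% of the naive counts.

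Of the glycolysis and hypoxia genes, Hilpda was past 2-fold lower in exhausted, in naive and in aged than in control, and 3 others were so in 1 or 2 of these libraries. The oxygen-sensing hydroxylase Egln3, the lipid droplet protein Hilpda, hexokinase 2 (Hk2) and the disulphide-forming oxidase Ero1a were the list members past 2-fold in any of these comparisons. Hilpda was at 31.1 CPM in exhausted, 32.6 in naive, 19.0 in aged and 72.1 in control. Egln3 was at 39.9, 34.7, 49.5 and 81.2 CPM, and Hk2 at 34.1, 28.6, 19.0 and 58.3 CPM, in the same order. Control was highest for each, although these are low counts: the 3 genes had 5 to 17 UMIs each in naive or aged, and 1 cell held 21.6% of the Hk2 counts in control. In S100-rich members these 3 genes reached the floor of 50 CPM in control alone. They could thus be called lower or within 2-fold in these comparisons, but not higher.

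Ero1a was at 66.3 CPM in exhausted, 67.3 in naive, 22.8 in aged and 126 in control. Lower by 2-fold were 2 of 18 list genes in exhausted over control, 3 of 18 in naive over control and 3 of 18 in aged over control, and 0 were higher. Among all S100-rich genes 1.01%, 4.85% and 6.7% were lower in these comparisons. The list medians were -0.54, -0.24 and -0.55, beside 0.00, -0.04 and -0.12 over all genes. By the rule the lower genes were Egln3 alone in exhausted, Egln3 and Ero1a in naive, and the same 3 in aged, while Hilpda was at 61.5 CPM in exhausted and 55.2 CPM in control. Larger glycolytic messages were within 2-fold: Aldoa was at 861 CPM in exhausted, 949 in naive, 849 in aged and 1295 in control. In granule-rich cells Hilpda was at 47.4, 31.6, 29.3 and 46.3 CPM in the same order.

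These 4 genes are classed with the response to low oxygen, so their promoters are printed as RefSeq gives them on GRCm38.p6. Each run holds 250 bases before the gene start and 50 after, on the strand of the gene. Capitals mark ACGTG, 1 form of the core to which hypoxia-inducible factors bind, or CACGT, the same letters on the other strand. The other form, GCGTG, is not marked or counted. The regions are chr12:54203825-54204124 for Egln3, minus strand, and chr6:82774405-82774704 for Hk2, minus strand. Those of Ero1a and Hilpda are chr14:45318523-45318822, minus strand, and chr6:29272238-29272537, plus strand.
Egln3: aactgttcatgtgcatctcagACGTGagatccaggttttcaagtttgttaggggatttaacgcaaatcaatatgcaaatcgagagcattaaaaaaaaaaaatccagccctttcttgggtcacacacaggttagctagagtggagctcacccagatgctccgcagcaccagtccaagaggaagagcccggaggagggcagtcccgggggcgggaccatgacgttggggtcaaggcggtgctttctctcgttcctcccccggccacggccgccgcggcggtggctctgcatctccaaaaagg
Hk2: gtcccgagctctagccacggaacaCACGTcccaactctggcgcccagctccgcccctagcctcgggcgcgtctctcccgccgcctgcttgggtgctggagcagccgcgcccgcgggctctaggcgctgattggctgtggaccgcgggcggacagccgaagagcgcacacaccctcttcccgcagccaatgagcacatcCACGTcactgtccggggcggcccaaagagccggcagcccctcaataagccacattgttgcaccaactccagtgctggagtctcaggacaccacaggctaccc
Ero1a: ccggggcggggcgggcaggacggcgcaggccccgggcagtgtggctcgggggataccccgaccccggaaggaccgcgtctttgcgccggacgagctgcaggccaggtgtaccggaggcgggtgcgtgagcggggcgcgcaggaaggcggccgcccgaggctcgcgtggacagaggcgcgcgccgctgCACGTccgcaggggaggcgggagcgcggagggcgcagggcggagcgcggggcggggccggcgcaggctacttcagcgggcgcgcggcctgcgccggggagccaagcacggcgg
Hilpda: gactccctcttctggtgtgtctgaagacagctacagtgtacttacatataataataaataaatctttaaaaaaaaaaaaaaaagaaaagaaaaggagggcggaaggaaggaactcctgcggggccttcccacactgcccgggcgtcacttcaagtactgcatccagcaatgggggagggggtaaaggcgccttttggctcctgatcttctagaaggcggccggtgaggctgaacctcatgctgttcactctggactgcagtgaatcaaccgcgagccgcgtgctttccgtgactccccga
Egln3 and Ero1a held 1 match each and Hk2 held 2. Hilpda held 0 of this form in this window. Of 27025 mouse promoters of this length 5315 held the motif on either strand, or 19.7%.

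In aged over control, 38 genes (1.59%) were higher and 160 (6.7%) lower in the S100-rich members, which were 54 cells against 143. Those of aged had 262724 UMIs to sum and those of control 874349, so more genes could reach 30 counts in control. Another scaling (TMM, trimmed mean of M values) would shift every log2 ratio of this comparison by -0.11. Several interferon-inducible genes were among those lower. Rtp4, a chaperone that interferon induces, was at 22.8 CPM in aged, 150 in exhausted, 218 in naive and 129 in control, and the ratio of aged to control was 0.18 (0.06 to 0.40). Oasl2, an oligoadenylate synthetase-like protein, was at 152 CPM in aged, 349 in exhausted, 453 in naive and 327 in control. Rsad2, the antiviral enzyme viperin, was at 15.2, 116, 202 and 135 CPM in the same order. Aged was lowest for all 3, and its counting interval for each lay below those of the other libraries.

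Of 8 interferon genes 4 were past 2-fold lower in aged than in control (Ifi204, Oasl2, Rsad2, Slfn5) and 0 higher, with a list median of -1.03 beside -0.12 over all genes. Only these 8 of the 24 list genes were measured. A gene could reach the floor of counts more easily in control than in aged, so the count and the median were more open to lower than to higher. By the rule 2 of 8 were lower, Rsad2 and Slfn5, with a median of -0.56. Slfn4, at 598 against 1177 CPM, was just within the fold. Per cell, the list summed to a median of 20.2 UMIs per 10000 in aged, 29.9 in exhausted, 37.8 in naive and 31.6 in control, and its highest cell had 45.6 in aged and 157 in control. Ifitm1, a membrane protein that blocks viral entry, was at 651 CPM in aged and 1339 CPM in control, and by the rule at 613 and 1009 CPM, within 2-fold. In granule-rich cells Rtp4 was at 16.0 CPM in aged and 11.5 CPM in control, and Oasl2 was at 29.97 and 26.5 CPM.

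Prok2 and Hilpda were also lower in aged, as given above, and Id2, an inhibitor of DNA-binding helix-loop-helix factors, was at 15.2 CPM in aged and 80.1 CPM in control. Higher in aged were Sipa1l2, at 129 against 37.7 CPM, and the kinase gene Lrrk2, at 236 against 113 CPM. For Dusp2 and Atf3, also past 2-fold higher, 1 cell held 29.6% and 42.0% of the aged counts. Il1b, at 6147 against 6319 CPM, and Cxcl2, at 4564 against 4565 CPM, were within 2-fold.

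**Figure D5:**
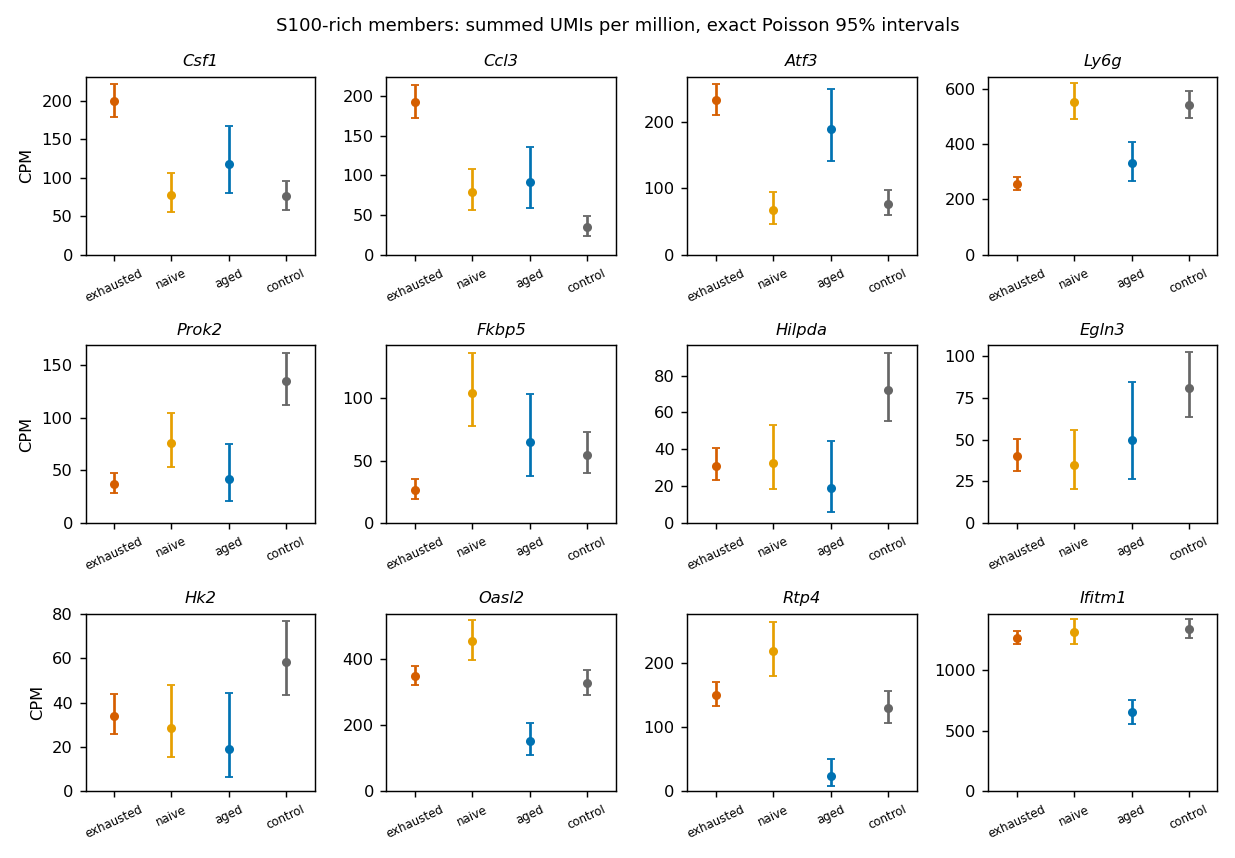
CPM of 12 genes in the S100-rich members of exhausted, naive, aged and control, with exact Poisson 95% intervals for counting error. Csf1, Ccl3 and Atf3 are highest in exhausted, Prok2, Hilpda, Egln3 and Hk2 in control, Fkbp5 in naive, and Oasl2, Rtp4 and Ifitm1 are lowest in aged.

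The remaining lists had few genes past 2-fold in S100-rich members, where 3.54% to 8.66% of all genes were past it, so lists this small would hold few at that share. Of the gelatinase granule (9 genes), pattern and Fc receptor (17 to 19), NADPH oxidase (6), survival (8) and transcription factor (9 or 10) lists, 0 genes were past 2-fold in S100-rich members in any of the comparisons. Of specific granule genes Chil3 alone was past it, lower in naive and aged than in control, and 1 cell held 50% of its control counts. Stefin and S100 genes were past it only in aged over control, where Stfa1 and Cstdc5 were lower. Receptors were past it in naive over control alone, with Ccrl2 and Icam1 lower out of 16. Among NF-kappa-B feedback genes Nfkbie was lower in naive than in control out of 13. Of immediate early and heat shock genes Atf3 and Dusp2 alone were past it, and of class I genes H2-Q4 and H2-Q7, higher in exhausted, and Tap1, lower in aged. In the glucocorticoid list Ddit4 was lower in aged than in control, out of 6, and Fkbp5 was lower in exhausted than in control, out of 8.

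Azurophil and cell division genes had counts that lay largely in single cells. Mpo and Elane, azurophil granule enzymes of the earliest precursors, were at 637 and 450 CPM in exhausted and at 1614 and 1352 CPM in control by the rule, and 1 cell held 50.7% of the Mpo and 72.6% of the Elane counts of control. In S100-rich members Mpo was at 271 CPM in exhausted and 5.72 CPM in control, with 97.8% of the exhausted counts in 1 cell. The azurophil list median for exhausted over control was -1.04 by the rule and 3.79 with S100-rich members. Cell division genes were lower for 11 of 12 in aged over control by the rule and for 4 of 8 in S100-rich members, with medians of -2.74 and -1.01. In naive over control 6 of 8 were lower in S100-rich members, with a median of -2.58, and 0 of 12 by the rule. Top2a, the replication topoisomerase, was at 7.61 CPM in S100-rich members of aged and 113 CPM in those of control.

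The 1 member of aged-injury had 4379 UMIs, 1480 genes and 5 of the 6 rule genes. Its Retnlg was 587 per 10000 and its S100a8, S100a9 and Csf3r together 1103 per 10000, within the range of the S100-rich members of aged. A single cell gave no gene comparison.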

How the data were processed

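The authors deposited raw UMI counts, as 1 gene-by-cell matrix for each library. Per the submitters' processing notes, Seurat 5.1 and the GRCm39 build were used. How reads were aligned and counted, and how cells were called, is not given in the sources used here. Matrices were joined on 30099 gene symbols, and a symbol missing from a library was taken as 0.

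The members, the 17 gene lists and the 13 marker lists were chosen with earlier results of these data known. The S100-rich limits, the 10% limit on 1 cell's counts and the Retnlg limits were set after seeing the values. Counts of members were summed per library and scaled to CPM, with no test. Intervals at 95% were exact Clopper-Pearson for shares, exact Poisson for CPM and exact conditional binomial for ratios. A gene at 0 was set to a floor of 3 counts. The library totals of members ran from 4379 UMIs in aged-injury to 2488091 in exhausted, so low genes in aged are the least precise. No doublet caller was run.

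Named genes were rule genes, list examples and up to 10 genes on each side of a comparison, ranked by the bound of the ratio interval nearest 1. Mitochondrial, ribosomal, predicted, immunoglobulin, haemoglobin, sex-linked and rule genes were left out, as were markers of other cells and genes under 0.2 of their level in the other cells of the library. Alternatives covered the marker number, the granule limit, cell filters, thinning, scaling (TMM, equal weight per cell, CPM without mitochondrial and S100 genes) and the CPM floor. The ratio step was tested on simulated data. Python 3.11.15, numpy 2.4.6, scipy 1.17.1 and pandas 2.3.3 were used.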

Additional observations from a re-analysis of the deposited data

Results flagged for a closer look

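The share of members by the rule among these members and granule-rich neutrophils together moved in opposite directions after a first ablation in young and in old mice. It was 36.5% in naive against 25.2% in control, and 4.35% in aged-injury against 32.2% in aged. The aged-injury value rests on 1 cell of 23, and its interval reaches 21.9%. The difference between the effects was not tested, since each group was 1 library, and the libraries were taken 2 weeks after surgery in naive and 1 week after surgery in aged-injury, so age and time after surgery cannot be told apart.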

How the results depend on the processing

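No paired analysis was possible because each group was 1 library and the labels carry no replicate numbers. With at least 2 of the 6 markers the share of members was 8.76% in exhausted and 2.32% in control, and with at least 4 it was 5.35% in exhausted. With granule genes under 10 per 10000 the exhausted share was 5.42%, and under 50 it was 6.96%, with 2.07% in control. Looser cell filters (200 genes, 500 UMIs) gave 5.44% in exhausted. Thinning each cell to 1000 UMIs before the rule gave 4.80% in exhausted and 1.42% in control. Exhausted was highest and aged-injury lowest under each of these.

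Genes past 2-fold, in the order naive over control, exhausted over control, exhausted over naive and aged over control, numbered 188, 136, 136 and 211 with each cell weighted equally. They numbered 579, 795, 1076 and 1327 at a floor of 10 CPM and 50, 72, 95 and 166 at 200 CPM. Requiring 4 markers gave 163 for exhausted over control, 253 for exhausted over naive and 377 for aged over control. With S100-rich members, added after seeing the data, the counts were 176, 109, 253 and 198. A limit of 50 per 10000 on the S100 genes in place of 20, also added later, gave 176, 86, 170 and 198. With Retnlg at least 100 per 10000 as well as the limit of 20 they were 182, 106 and 127, and aged, with 41 such cells, was not run. Granule genes under 10 per 10000 left 49 aged cells and was not run for that comparison either. For exhausted over control the split was 203 higher and 92 lower by CPM, 252 and 62 by TMM, which shifts the log2 ratios by 0.14, and 63 and 73 with equal weight. For naive over control it was 109 and 185 by CPM, and 50 and 138 with equal weight. Aged-injury, with 1 member, gave no gene comparison under any setting.

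Mature over granule-rich neutrophils gave 402 genes, 177 at a floor of 200 CPM, and 441 to 534 when 1 library was left out, with genes of the rule not left out. List medians moved for cell division: S100-rich members gave -2.58 for naive over control, -0.01 for exhausted over control, 1.53 for exhausted over naive and -1.01 for aged over control, and equal weight gave -0.80 for aged over control. The cause of these changes was not tested. Depth limits aged most, where a gene needs 30 counts among 279080 UMIs.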
